A study of Mus musculus with 6 samples.

Results

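The ubiquitin-conjugating enzymes, or E2s, are carried in the deposited liver expression matrix by 37 genes whose symbols begin with Ube2, of 22851 genes in all. The prefix alone chose them, and no measured value was used. Of the 37, 33 were above 1 FPKM (fragments per kilobase of transcript scaled to the number of mapped fragments, the deposited unit) in at least 3 of the 6 libraries and entered the test, out of 10743 genes tested. The other 4 were Ube2d2b, Ube2ql1, Ube2dnl1 and Ube2dnl2. Ube2dnl1 and Ube2dnl2 were listed at 0 in every library, Ube2d2b reached at most 0.50 FPKM and Ube2ql1 at most 0.06 FPKM. The prefix fitted the family with 1 exception: Ube2cbp encodes a UBE2C-binding protein of the E3 type and no conjugating enzyme, and it is kept because the symbol carries the prefix. Ube2v1 and Ube2v2 encode E2 variants that lack the catalytic cysteine and work as partners of Ube2n.

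Ubiquitin is first activated by an E1 enzyme, then passed to the active-site cysteine of an E2, and finally attached to a protein by an E2 acting with an E3 ligase. The E2 and E3 together set whether a single ubiquitin or a chain is built and which lysine links the chain, and with it whether the protein goes to the proteasome or serves a signalling or repair role. A few E2s carry related modifiers instead, such as NEDD8 or ISG15.

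The samples were bulk liver messenger RNA libraries from male C57BL/6J mice, all on a high-fat diet, which gives rise to fatty liver. The vehicle group held 3 libraries, numbered 1, 2 and 4. The ONX-0914 group held 3 libraries, numbered 1, 3 and 4, from mice given ONX-0914, an inhibitor of the immunoproteasome subunit PSMB8, subcutaneously at 10 mg/kg on alternate days for 6 weeks. The comparison asks which liver transcripts differ when the inhibitor is given during the diet. The labels give no age and no genetic change, and the design text speaks of 2 biological replicates a group where 3 libraries a group are listed. Nothing states that the libraries came from separate animals, so the p-values measure only the spread between these libraries. Mice on a normal diet were not analysed here. All values below are given in the order vehicle 1, 2 and 4, then ONX-0914 1, 3 and 4.

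Several facts of the whole matrix touch each result. As deposited, 43.5% of all tested genes were called lower with ONX-0914 and 2.56% higher (limma, adjusted p under 0.05), and the median log2 fold change of all tested genes was -0.64. When each library was scaled by its median ratio to the other libraries, that median became 0.00, and 13.7% of genes were called lower and 14.3% higher. The fall was also larger for longer transcripts: across 10552 genes with a known transcript length, the correlation of log2 fold change with log length was -0.38 (Pearson), a description across genes that share libraries. With the length trend of each library removed, 11.6% were called lower and 9.51% higher. Library ONX-0914 3 lay nearer to vehicle than the other treated libraries: of all genes called lower, 76.4% had it below every vehicle library and above both other treated ones. Markers of other liver cells differed between the groups as well: all 12 endothelial markers fell, with a summed level of 205 to 212 FPKM under vehicle and 25.5 to 50.9 FPKM with ONX-0914, and none was at 0 in every library. Of these 12, 4 were above 1 FPKM in all 6 libraries, and all 4 were lower with that filter. The rest met the filter used here through their vehicle values. Of 12 Kupffer and macrophage markers 9 fell (summed 1583 to 2366 against 792 to 1122 FPKM), as did 7 of 10 stellate cell markers (280 to 346 against 64.5 to 144 FPKM). With the filter in all 6 libraries, 9 of 12 Kupffer and 4 of 7 stellate markers tested were lower. Among 12 hepatocyte markers 4 fell and 2 rose (85760 to 91640 against 65010 to 97690 FPKM). With median-ratio scaling the calls were 10 endothelial, 3 Kupffer and 3 stellate markers lower and none higher, and 0 hepatocyte markers lower and 4 higher. Of 10 neutrophil markers none was called as deposited, with summed levels that overlapped (311 to 1899 against 188 to 4866 FPKM). In bulk tissue, fewer cells of a type and less RNA per cell cannot be told apart. The part of cell makeup and transcript length in the results below was not tested.

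Across the 33 tested Ube2 genes, 14 fell and 0 rose with the values as deposited, and 19 were not called. This is 14 of 33 beside 43.5% of all tested genes called lower and 2.56% called higher, so the family's share lay near the background. At an unadjusted p under 0.05 limma found 17 lower and 0 higher, beside 51.2% and 4.00% of all tested genes. The median log2 fold change was -0.64 for the family and -0.64 for all tested genes. Among the 14 were Ube2d1, Ube2d3, Ube2e1, Ube2e2, Ube2g1, Ube2h, Ube2o, Ube2q1, Ube2q2, Ube2r2, Ube2v1, Ube2w and Ube2z. Ube2h, Ube2o and Ube2z, of these 14, and Ube2t and Ube2v2, not called, were above 1 FPKM in fewer than 3 treated libraries and so met the filter through their vehicle values. Groups did not overlap for 16 members lower and 1 higher with ONX-0914, beside 53.5% and 4.93% of all tested genes.

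The calls of the members changed with scaling, as did those of all tested genes. With median-ratio scaling, 4 members remained lower, Ube2e1, Ube2e2, Ube2h and Ube2v1, beside 13.7% of all genes. In the same fit 5 members were higher, Ube2a, Ube2e3, Ube2j2, Ube2m and Ube2s, beside 14.3%, and the members' median moved to 0.15. Of the 19 members not called as deposited, 13 changed from a negative to a positive value there. With the length trend removed the same 4 were lower (background 11.6%), 1 was higher, Ube2j2 (background 9.51%), and the members' median was 0.12. Ube2e1, Ube2e2 and Ube2v1 were called lower under all alternatives computed. Ube2h was called lower under every alternative in which it was tested, and left the test when a value above 1 FPKM was required in all 6 libraries. The other 10 of the 14 were called with the values as deposited and not with median-ratio scaling. Without ONX-0914 3 the count rose to 21 lower and 0 higher (background 60.6% and 6.89%), without ONX-0914 4 it was 9 lower and 0 higher (background 28.2% and 1.25%), and ONX-0914 3 alone against the 3 vehicle libraries gave 9 lower and 1 higher, Ube2s (background 27.9% and 2.88%).

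**Figure D1:**
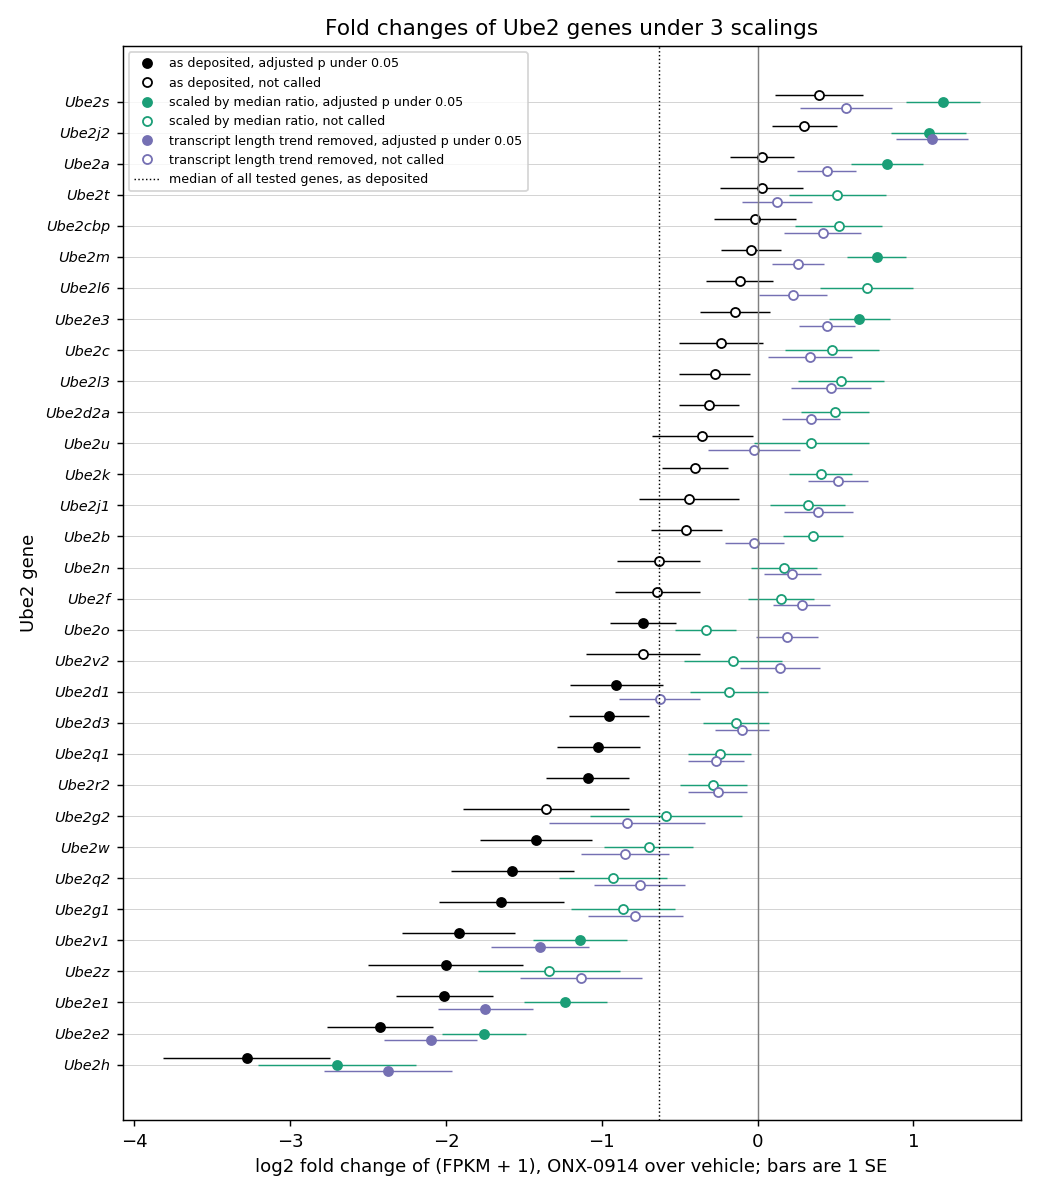
Log2 fold change of (FPKM + 1), ONX-0914 over vehicle, for 32 tested Ube2 genes; bars are 1 standard error, filled points have a limma adjusted p under 0.05, and colours give values as deposited, scaled by median ratio and with the transcript length trend removed. Of 13 filled points as deposited, 4 are also filled on the lower side in both other scalings, and Ube2j2 is filled on the higher side in both.

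The upstream sequences of 3 of the 4 members that were lower in all 3 scalings, and of Ube2j2, are shown because they differ in a motif. Its share among the members was the furthest from its share among all genes with an upstream window, tested here or not. Each ends at the RefSeq start site or, where an annotated transcript begins earlier, just before that transcript, on GRCm38.p6. Capitals mark a GC box, the letters GGGCGG on either strand, which is known as a binding motif of Sp1-type factors. Ube2h lies upstream at chr6:30304540-30304789 (minus strand), Ube2e1 at chr14:18331860-18332094 (minus strand), Ube2v1 at chr2:167632096-167632255 (minus strand) and Ube2j2 at chr4:155943563-155943812 (plus strand).
Ube2h: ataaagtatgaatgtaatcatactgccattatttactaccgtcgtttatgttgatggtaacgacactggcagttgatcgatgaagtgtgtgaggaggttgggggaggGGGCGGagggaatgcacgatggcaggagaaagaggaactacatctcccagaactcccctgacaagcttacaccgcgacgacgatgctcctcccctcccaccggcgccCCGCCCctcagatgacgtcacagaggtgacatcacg
Ube2e1: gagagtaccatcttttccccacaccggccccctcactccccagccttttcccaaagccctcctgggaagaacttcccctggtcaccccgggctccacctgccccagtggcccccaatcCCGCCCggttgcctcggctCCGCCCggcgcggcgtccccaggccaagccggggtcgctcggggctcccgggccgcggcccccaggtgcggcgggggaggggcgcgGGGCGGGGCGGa
Ube2v1: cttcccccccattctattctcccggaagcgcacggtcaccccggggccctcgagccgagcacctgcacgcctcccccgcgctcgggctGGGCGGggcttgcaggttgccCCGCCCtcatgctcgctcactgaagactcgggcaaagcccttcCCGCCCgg
Ube2j2: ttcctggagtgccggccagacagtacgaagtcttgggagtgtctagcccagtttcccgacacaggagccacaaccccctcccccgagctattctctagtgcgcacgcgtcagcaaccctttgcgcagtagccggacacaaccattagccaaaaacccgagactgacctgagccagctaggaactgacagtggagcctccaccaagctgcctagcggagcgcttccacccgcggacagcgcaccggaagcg

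Ube2h held 2 GC boxes in its 250 bases, Ube2e1 4, with the last pair overlapping, and Ube2v1 3, while none was found in the Ube2j2 window. The window of Ube2e2 lies inside an earlier annotated transcript and is not shown. The counts below use all 250 bases before each RefSeq start site, transcribed or not. They therefore include Ube2e2, with 2 GC boxes, among the members called lower. Of the 37 members, 30 matched a RefSeq promoter by symbol. A GC box stood in 18 of these 30 (60.0%) and in 33.0% of 27025 genes with a window of 250 bases. The 27025 include genes that were not tested here. Of tested genes with a window, 5068 held a GC box and 3591 did not, beside 17 and 9 tested members. Among tested genes it was thus common: 62.1% of all genes called lower and 55.8% of those not called lower held it. In the family it stood in 11 of the 11 matched members called lower as deposited and in 6 of 15 that were tested and not called lower. With median-ratio scaling, and likewise with the length trend removed, it stood in 4 of 4 called lower and in 13 of 22 not called lower. Over all tested genes those shares were 60.9% and 58.2% with median-ratio scaling, and 56.8% and 58.9% with the length trend removed. Of the members higher with median-ratio scaling, Ube2a held 1 GC box and Ube2s 2, Ube2j2 and Ube2m none, and Ube2e3 had no matched window. The median log2 fold change as deposited was -1.02 for 17 tested members with the motif and -0.12 for 9 without, beside -0.68 and -0.57 for all tested genes. This split was noticed after the values were seen, and it describes letters in a window, with no test of any factor.

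Motifs tied to pathways of interest in this liver setting were rare or near background among the 30 matched members, all searched on both strands in the same windows. The interferon-stimulated response element, searched as GAAA, any 2 bases and GAAA, stood in 1 member, Ube2dnl1 (3.33%, beside 3.05% of all genes), and not in the Ube2l6 window. The sterol-response motif TCACNCCAC stood in 0 members and in 1.03% of all genes. The unfolded-protein-response core TGACGTG stood in 1, Ube2j1 (3.33%, beside 1.59%), the E-box CACGTG in 2, Ube2b and Ube2q1 (6.67%, beside 6.02%), and the cell-cycle motif TTTGAA in 4 (13.3%, beside 16.2%). CCAAT stood in 9 (30.0%, beside 34.3%), and Ube2c held 6 copies of it beside 1 copy of TTTGAA.

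By level, which FPKM allows to be set between genes because it is scaled by length, a few members made up much of the family. Under vehicle the highest were Ube2d3 with a mean of 285.6 FPKM, Ube2l6 with 185.6 FPKM and Ube2b with 148.0 FPKM. With ONX-0914 the means were 174.2 FPKM for Ube2l6 and 153.5 FPKM for Ube2d3, with Ube2l6 above Ube2d3 in ONX-0914 1 and 4 and below it in ONX-0914 3. The members' summed level was 1744.5, 1691.6 and 1695.7 FPKM in the vehicle libraries and 972.8, 1401 and 1039.5 FPKM in the ONX-0914 libraries. As deposited, all 3 treated libraries lay below all vehicle libraries, and ONX-0914 3 lay closest to them. The median-ratio factors were 1.41, 1.35 and 1.29 for the vehicle libraries and 0.699, 0.959 and 0.664 for the ONX-0914 libraries. Once each sum is divided by its factor the order reverses, so no fall of the family total can be read from the sums alone. Ube2d3 took 16.7% ± 0.667 (SD, n = 3) of the members' sum under vehicle and 13.2% ± 2.42 with ONX-0914, and Ube2l6 took 10.9% ± 0.859 and 15.9% ± 5.50. In the vehicle libraries 33 members were above 1 FPKM, and in the treated libraries 30, 31 and 30 were.

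**Figure D2:**
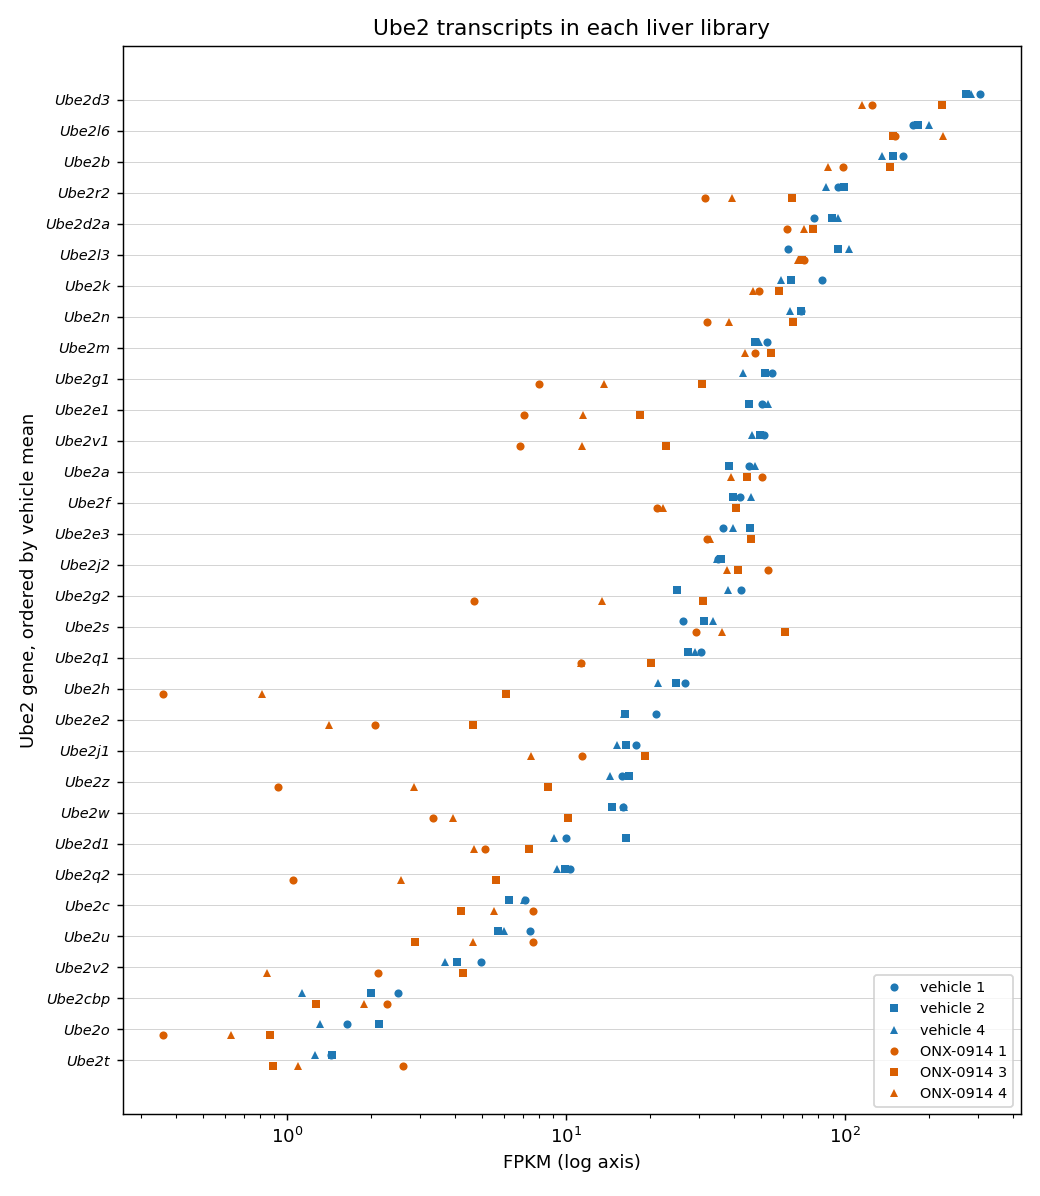
FPKM (log axis) of 32 tested Ube2 genes in each library, ordered by vehicle mean; blue points are the vehicle libraries, orange points the ONX-0914 libraries, and shapes give the library number. Orange points lie far left of the blue for Ube2h, Ube2e2, Ube2e1 and Ube2v1, with the square of ONX-0914 3 nearest to vehicle, while Ube2l6, Ube2m and Ube2a overlap.

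The priming and broad-range enzymes, which work with many E3 ligases and often place the first ubiquitin, held 8 tested members, of which 5 fell and 0 rose (unadjusted p under 0.05: 5 lower, 0 higher). Beside this and the role-group counts below stand 43.5% of all tested genes lower and 2.56% higher (unadjusted 51.2% and 4.00%). Ube2e2, of the UBE2E group with a long amino-terminal extension, measured 20.98, 16.18 and 16.11 FPKM under vehicle and 2.07, 4.65 and 1.41 FPKM with ONX-0914. Every treated library lay far below every vehicle library. The log2 fold change was -2.42 (SE 0.34, limma adjusted p = 0.0018), a mean FPKM 6.55-fold lower. It stayed lower after median-ratio scaling (-1.76, adjusted p = 0.00722). Removal of the length trend left -2.10 (adjusted p = 0.00629).

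Its close relative Ube2e1 lies nearby on chromosome 14, at 18282722 to 18331859 (minus strand), where Ube2e2 spans 18573575 to 18894267 (minus strand) on GRCm38. Ube2e1 measured 50.41, 45.16 and 52.96 FPKM under vehicle and 7.06, 18.35 and 11.5 FPKM with ONX-0914, again without overlap. As deposited it changed by -2.01 on the log2 scale (SE 0.31, limma adjusted p = 0.00227). Median-ratio scaling gave -1.23 (adjusted p = 0.0167), and removal of the length trend gave -1.75 (adjusted p = 0.0106). Of its exonic bases, 16.1% overlap Nkiras1 on the opposite strand, and whether counting used strand is not stated. Ube2e3, the other UBE2E gene, lies on chromosome 2 and measured 36.4, 45.48 and 39.72 FPKM against 31.98, 45.97 and 32.78 FPKM. Its groups overlapped, and its log2 fold change was -0.15 (SE 0.22, limma adjusted p = 0.605) as deposited and 0.65 (adjusted p = 0.0409) with median-ratio scaling. Within a library, the ratio of Ube2e3 to Ube2e1 was 0.722, 1.01 and 0.75 under vehicle and 4.53, 2.51 and 2.85 with ONX-0914, so that Ube2e3 went from level with or below its relative to above it in every treated library.

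The UBE2D enzymes are the most widely used partners of E3 ligases. Ube2d3, the most abundant member, measured 303.07, 271.35 and 282.45 FPKM under vehicle and 124.45, 221.51 and 114.57 FPKM with ONX-0914. The groups did not overlap, and ONX-0914 3 lay between vehicle and the other treated libraries. The log2 fold change was -0.95 (SE 0.26, limma adjusted p = 0.0166), and -0.14 (adjusted p = 0.645) with median-ratio scaling, where it was not called. Ube2d1 had 11.8 ± 3.95 FPKM (SD, n = 3) under vehicle and 5.72 ± 1.45 FPKM with ONX-0914 (log2 fold change -0.91, SE 0.30, limma adjusted p = 0.0338). Ube2d2a had 87.2 ± 8.83 and 70.0 ± 7.47 FPKM, without overlap, and was not called (-0.31, SE 0.19, adjusted p = 0.204). A share of 15.4% of the Ube2d2a transcript's 75-base windows also occurs in other annotated genes, so reads there could be assigned either way.

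Ube2w, which attaches ubiquitin to the amino terminus of proteins, fell from 15.6 ± 0.844 to 5.79 ± 3.77 FPKM (-1.42, SE 0.36, limma adjusted p = 0.0127). With median-ratio scaling its adjusted p was 0.0927. Ube2l3, the partner of HECT and RBR ligases, had 86.4 ± 21.4 and 69.6 ± 1.83 FPKM and was not called (-0.28, SE 0.23, adjusted p = 0.333). Its exons overlap Ydjc on the opposite strand over 28.6% of their bases.

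Enzymes that build lysine-48-linked chains, the classical signal for the proteasome, or that serve degradation of misfolded proteins at the endoplasmic reticulum (ER) held 6 tested members, and 2 fell. Ube2g1 measured 54.42, 51.65 and 42.96 FPKM under vehicle and 8.01, 30.69 and 13.63 FPKM with ONX-0914. The treated libraries were all lower, and ONX-0914 3 was the highest of them. On the log2 scale Ube2g1 changed by -1.65 (SE 0.40, limma adjusted p = 0.0109), and -0.86 (adjusted p = 0.0841) with median-ratio scaling. Ube2r2, a CDC34-type partner of cullin-RING ligases, measured 94.28, 99.17 and 85.39 FPKM against 31.53, 64.36 and 39.21 FPKM, without overlap (-1.09, SE 0.27, limma adjusted p = 0.0112). Median-ratio scaling left it at -0.28 (adjusted p = 0.344).

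Ube2j2, an E2 anchored in the ER membrane, was the only member whose treated libraries all lay above vehicle. It measured 34.88, 36 and 34.62 FPKM under vehicle and 52.65, 41.36 and 37.82 FPKM with ONX-0914. The log2 fold change as deposited was 0.30 (SE 0.21, limma adjusted p = 0.252), and it was not called. Median-ratio scaling gave 1.10 (adjusted p = 0.0176), and removal of the length trend gave 1.12 (adjusted p = 0.0163). Once ONX-0914 3 was left out, the value as deposited was 0.34 (adjusted p = 0.143). Of its 75-base windows, 8.89% also occur in Gm5801.

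Ube2j1, the other membrane-anchored enzyme, overlapped between groups, with 16.4 ± 1.28 and 12.7 ± 5.95 FPKM (-0.44, SE 0.32, limma adjusted p = 0.277). Ube2g2, the main E2 of several ER ligases, was the most scattered of this group: 42.22, 24.92 and 38.02 FPKM under vehicle and 4.66, 30.84 and 13.44 FPKM with ONX-0914. Only ONX-0914 3 lay within the vehicle range, and the change of -1.36 on the log2 scale (SE 0.53, limma adjusted p = 0.0613) was not called. Leaving out 1 library at a time gave -1.96 (adjusted p = 0.0025, without ONX-0914 3) to -0.72 (adjusted p = 0.166, without ONX-0914 1). Ube2k, which can build such chains without a RING ligase, had 68.4 ± 12.3 and 51.3 ± 5.91 FPKM, without overlap, and was not called (-0.40, SE 0.21, adjusted p = 0.143).

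Lysine-63-linked chains, used in DNA repair and inflammatory signalling, are built by Ube2n with an inactive partner, Ube2v1 or Ube2v2. Of these 3 genes 1 fell. Ube2v1 measured 51.2, 49.28 and 46.34 FPKM under vehicle and 6.82, 22.78 and 11.35 FPKM with ONX-0914. All treated libraries lay below all vehicle libraries. On the log2 scale the change was -1.92 (SE 0.36, limma adjusted p = 0.00426). It was -1.14 after median-ratio scaling (adjusted p = 0.0274) and -1.40 once the length trend was taken out (adjusted p = 0.0207).

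The Ube2v1 value is uncertain as a measure of that gene alone. Of its 75-base windows, 83.0% also occur in other annotated genes, and 61.5% of its exonic bases are shared on the same strand with Gm20431, a readthrough that joins it to Tmem189. Tmem189 itself measured 13.84, 12.77 and 11.86 FPKM under vehicle and 2.52, 6.11 and 3.92 FPKM with ONX-0914 (-1.47, SE 0.30, limma adjusted p = 0.00567). The neighbour thus also lay lower in every treated library.

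Ube2n measured 69.33, 69.24 and 63.56 FPKM against 31.93, 64.82 and 38.27 FPKM. ONX-0914 3 lay within the vehicle range, and the gene was not called (-0.64, SE 0.27, limma adjusted p = 0.077). Leaving out 1 library at a time gave -0.93 (adjusted p = 0.00156, without ONX-0914 3) to -0.43 (adjusted p = 0.214, without ONX-0914 1). The ratio of Ube2n to Ube2v1 within a library was 1.35, 1.41 and 1.37 under vehicle and 4.68, 2.85 and 3.37 with ONX-0914, higher in every treated library. Ube2v2 was a minor transcript, with 4.23 ± 0.646 and 2.41 ± 1.73 FPKM (-0.74, SE 0.37, limma adjusted p = 0.124).

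The pair that serves the anaphase-promoting complex, with Ube2c starting chains and Ube2s extending them, had 0 of 2 members called as deposited (unadjusted p under 0.05: 0 in either direction). Ube2s measured 26.16, 31.25 and 33.51 FPKM under vehicle and 29.1, 60.55 and 36.08 FPKM with ONX-0914. Its high value came from ONX-0914 3, and the groups overlapped. The log2 fold change was 0.39 (SE 0.28, limma adjusted p = 0.269), but 0.98 (adjusted p = 0.0116) for ONX-0914 3 alone against vehicle and 0.10 (adjusted p = 0.65) without it. Scaled by median ratio it was 1.19 (adjusted p = 0.0137), and without the length trend 0.56 (adjusted p = 0.197). Ube2c had 6.81 ± 0.521 and 5.77 ± 1.73 FPKM (-0.24, SE 0.27, adjusted p = 0.49), and 22.8% of its exonic bases overlap Tnnc2 on the opposite strand. Among 11 tested proliferation genes, 5 fell and 0 rose (median -0.57), beside 43.5% and 2.56% of all tested genes. Most of the 5 were above 1 FPKM in fewer than 3 treated libraries and so met the filter through their vehicle values. With a value above 1 FPKM required in all 6 libraries, 6 were tested, with 1 lower and 0 higher. With median-ratio scaling 1 fell and 2 rose (median 0.10), beside 13.7% and 14.3%. Removal of the length trend gave 0 lower and 2 higher.

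The enzymes of histone ubiquitylation and DNA repair, Ube2a, Ube2b and Ube2t, had 0 of 3 called as deposited (unadjusted p under 0.05: 0 in either direction). Ube2b, of the RAD6 type, measured 160.83, 148.3 and 134.82 FPKM under vehicle and 98.07, 144.02 and 87.01 FPKM with ONX-0914. ONX-0914 3 lay within the vehicle range and the others below it, at -0.46 on the log2 scale (SE 0.23, limma adjusted p = 0.123), or -0.67 (adjusted p = 0.007) without ONX-0914 3 and -0.31 (adjusted p = 0.341) without ONX-0914 4. The near-identical RAD6 enzyme Ube2a measured 45.36, 38.22 and 47.37 FPKM against 50.41, 44.5 and 38.89 FPKM. Its groups overlapped (0.03, SE 0.21, adjusted p = 0.916), and median-ratio scaling placed it at 0.83 (adjusted p = 0.032).

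Ube2t, the E2 of the Fanconi anaemia repair pathway, was close to the filter at 1.43, 1.45 and 1.26 FPKM under vehicle and 2.59, 0.89 and 1.09 FPKM with ONX-0914. The treated libraries lay on both sides of vehicle (0.03, SE 0.27, limma adjusted p = 0.942).

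The E2s for NEDD8, a ubiquitin-like modifier that activates cullin ligases, are Ube2m and Ube2f. Ube2m measured 52.57, 47.59 and 49.17 FPKM against 47.6, 54.2 and 43.76 FPKM, overlapping, at -0.04 on the log2 scale (SE 0.19, limma adjusted p = 0.872) as deposited and 0.76 (adjusted p = 0.0244) with median-ratio scaling. Ube2f had 42.4 ± 3.24 and 28.0 ± 11.03 FPKM and was not called (-0.64, SE 0.27, adjusted p = 0.078).

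Ube2l6 carries ISG15, an interferon-induced modifier. It measured 175.44, 181.91 and 199.49 FPKM under vehicle and 151.1, 147.64 and 223.75 FPKM with ONX-0914. The treated libraries lay on both sides of the vehicle range, and the log2 fold change was -0.12 (SE 0.21, limma adjusted p = 0.667). Scaling by median ratio turned the sign to 0.70 (adjusted p = 0.108), still without a call.

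The large or otherwise separate members held 7 tested genes, of which 5 fell and 0 rose (unadjusted p under 0.05: 5 lower, 0 higher). Over all tested genes 43.5% fell and 2.56% rose (unadjusted 51.2% and 4.00%). Of the 5, Ube2h, Ube2o and Ube2z met the filter through their vehicle values. With a value above 1 FPKM required in all 6 libraries, 4 were tested and 2 were lower. Median-ratio scaling left 1 of the 7 lower. Ube2h, a partner of the CTLH ligase known for its part in red cell maturation, showed the largest fold change among the members. It measured 26.7, 24.76 and 21.32 FPKM under vehicle and 0.36, 6.07 and 0.81 FPKM with ONX-0914. The treated libraries were all far below vehicle, with ONX-0914 3 the highest of them. Its mean FPKM was 10.05-fold lower, and its log2 fold change was -3.28 (SE 0.54, limma adjusted p = 0.0027). Median-ratio scaling gave -2.70 (adjusted p = 0.0124), and removal of the length trend gave -2.37 (adjusted p = 0.01). Leaving out 1 library at a time gave -4.00 to -2.81, and ONX-0914 3 alone gave -1.83 (adjusted p = 0.0021). Of 6 tested erythroid markers 1 fell and 0 rose, and their summed level overlapped (183 to 641 against 311 to 441 FPKM).

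Ube2z, the E2 that takes ubiquitin from UBA6, measured 15.84, 16.77 and 14.33 FPKM against 0.93, 8.59 and 2.85 FPKM. The groups were apart (-2.00, SE 0.50, limma adjusted p = 0.0116), and with median-ratio scaling the value was -1.34 (adjusted p = 0.0581). Ube2q1 measured 30.52, 27.32 and 28.9 FPKM against 11.28, 20.09 and 11.31 FPKM (-1.02, SE 0.26, limma adjusted p = 0.0138), with the treated libraries lower throughout. Its relative Ube2q2 fell from 9.85 ± 0.527 to 3.07 ± 2.33 FPKM (-1.58, SE 0.40, adjusted p = 0.0123), and 16.8% of its 75-base windows also occur in Gm4895.

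Ube2o, a large hybrid E2 and E3 enzyme known for clearing ribosomal proteins in red cell precursors, fell from 1.70 ± 0.418 to 0.620 ± 0.255 FPKM (-0.74, SE 0.21, limma adjusted p = 0.021). It was not called with median-ratio scaling (-0.33, adjusted p = 0.22), and its sign turned with the length trend removed (0.19, adjusted p = 0.512). All its vehicle values were above 1 FPKM and all its treated values below, so it entered the test through the vehicle group alone. At this level the added 1 in log2(FPKM + 1) understates the change, which was 2.74-fold in mean FPKM. Ube2u was not called (6.36 ± 0.915 and 5.02 ± 2.38 FPKM, -0.36, SE 0.32, adjusted p = 0.38). Ube2cbp measured 2.5, 1.99 and 1.13 FPKM against 2.28, 1.27 and 1.88 FPKM, with groups that overlapped (-0.02, SE 0.26, adjusted p = 0.957).

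In all 14 members that fell, ONX-0914 3 lay below every vehicle library and above both other treated libraries. Of all genes called lower, 76.4% showed this order. Measured from the vehicle mean on the log2 scale, the fall in ONX-0914 3 was a median of 40% of the mean fall in the other treated libraries (29.1% to 62.0% over the 14), beside a median of 57.4% over all genes called lower. The shares were lowest for Ube2d3 (29.1%), Ube2z (30.4%) and Ube2w (31.0%), and highest for Ube2e2 (62.0%), Ube2o (61.1%) and Ube2e1 (59.3%). Relative to vehicle, the median log2 difference of the tested members was -0.97, -0.33 and -0.90 in ONX-0914 1, 3 and 4, beside -0.74, -0.38 and -0.79 for all tested genes.

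Ratios of related members within a library are unchanged when a library is multiplied by 1 factor, as in median-ratio or upper-quartile scaling, but quantile normalization and removal of the length trend alter them. Over 15 such pairs, chosen after the values were seen, the ratio was higher in every treated library than in every vehicle library for 7 pairs and overlapped for 8. As the pairs are written all 15 mean shifts are positive, so the absence of lower pairs follows from which gene was set first. The share among other gene pairs was not computed. With 3 libraries against 3 an exact two-sided permutation test cannot go below p = 0.10, or 0.214 after Benjamini-Hochberg adjustment over the 15, and so no pair could pass. The mean shift was largest for Ube2e3 over Ube2e2, at 6.66-fold, with ratios of 1.73, 2.81 and 2.47 under vehicle and 15.4, 9.89 and 23.2 with ONX-0914. Ube2e3 over Ube2e1 shifted 3.90-fold and Ube2n over Ube2v1 2.58-fold. The other 4 were Ube2q1 over Ube2q2 (1.89-fold), Ube2e1 over Ube2e2 (1.71-fold), Ube2d2a over Ube2d3 (1.56-fold) and Ube2m over Ube2f (1.54-fold). With the length trend removed, the difference of fitted log2 fold changes for Ube2m against Ube2f went from 0.60 to -0.02, while it was 2.28 and 2.54 for Ube2e3 against Ube2e2, 1.87 and 2.19 for Ube2e3 against Ube2e1, and 1.28 and 1.62 for Ube2n against Ube2v1.

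Among the pairs that overlapped, Ube2d3 over Ube2d1 was 30.3, 16.6 and 31.1 under vehicle and 24.4, 30.0 and 24.4 with ONX-0914, a 1.04-fold difference. Ube2v2 over Ube2v1, the inactive partners of Ube2n, was 0.0965, 0.0824 and 0.0794 against 0.311, 0.187 and 0.0749, with ONX-0914 4 below all vehicle libraries. Ube2j2 over Ube2j1 was 1.97, 2.21 and 2.28 against 4.63, 2.16 and 5.07, with ONX-0914 3 inside the vehicle range. Ube2e1 and Ube2e2 have longest coding transcripts of 1408 and 1523 bases, shorter than the 2249 bases of Ube2e3, whereas Ube2m with 1472 bases is shorter than Ube2f with 5654.

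**Figure D3:**
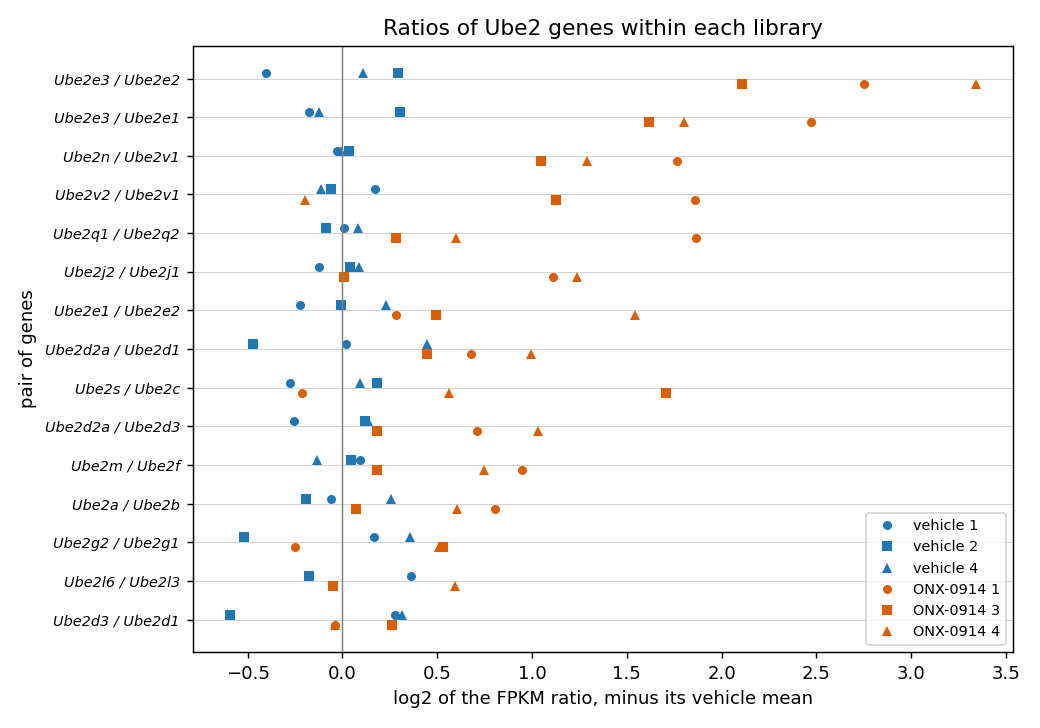
Log2 of the FPKM ratio of 2 related Ube2 genes within each library, minus the vehicle mean of that ratio, for 15 pairs; blue points are vehicle and orange points ONX-0914 libraries. As the pairs are written every mean shift is positive, and all 3 orange points lie right of all blue points for 7 pairs, furthest for Ube2e3 over Ube2e2.

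The correlation of log2 fold change with log transcript length was -0.25 (Pearson) and -0.30 (Spearman) over the 33 members, beside -0.38 and -0.40 over 10552 genes. These are descriptions across genes that share libraries. Of 17 members with a longest coding transcript of up to 2480 bases 5 fell, with a median log2 fold change of -0.31, and of 16 longer members 9 fell, with a median of -0.85. With the length trend removed, those medians were 0.12 and 0.02. Ube2e1, Ube2e2 and Ube2v1 are among the shorter members, at 1408, 1523 and 2041 bases, and Ube2h is among the longer, at 4657 bases.

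**Figure D4:**
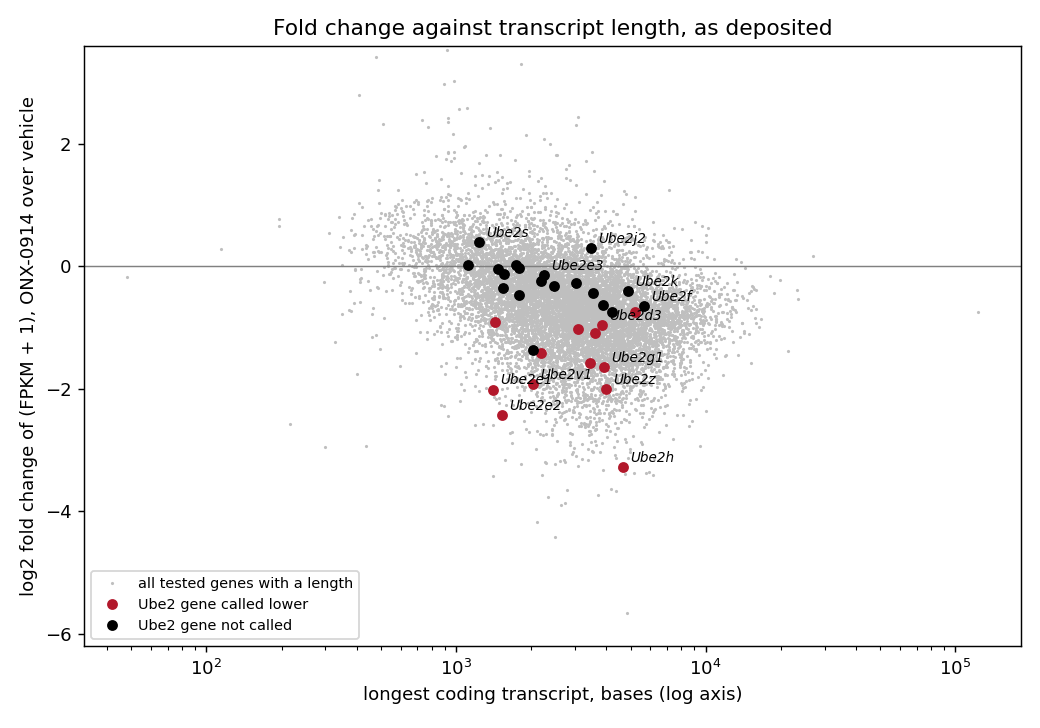
Log2 fold change of (FPKM + 1) as deposited against the length of the longest coding transcript in bases (log axis), with all tested genes in grey, and 32 tested Ube2 genes in red where called and in black where not. The grey cloud falls with length (Pearson -0.38), and Ube2e1 and Ube2e2 lie low among genes of similar length.

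The rest of the pathway, described from lists written with earlier results of these data known, moved in both directions. Beside each list count below stand 43.5% of all tested genes called lower and 2.56% higher, with a median of -0.64. Of 9 tested E1 activating enzymes 4 fell and 0 rose (median -0.66). The largest fall was in Sae1, a SUMO E1 subunit, from 63.6 ± 9.34 to 15.6 ± 5.64 FPKM (-2.01, SE 0.29, limma adjusted p = 0.002). Of 18 tested ubiquitin and modifier genes 5 fell and 1 rose, with a median of -0.11. The polyubiquitin gene Ubb rose from 350.8 ± 11.3 to 641.4 ± 111.5 FPKM (0.85, SE 0.19, limma adjusted p = 0.00839), while Sumo3 fell (-1.53, adjusted p = 0.00221).

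Of 8 E2 and E2-like genes that lack the Ube2 prefix, 4 fell and 1 rose (median -0.65). Cdc34, the relative of Ube2r2, measured 88.51, 86.38 and 99.72 FPKM against 185.87, 114.4 and 171.53 FPKM (0.75, SE 0.23, limma adjusted p = 0.025). It thus rose where Ube2r2 fell. Those that fell were Uevld (-1.33, adjusted p = 0.00654), Aktip (-1.25, adjusted p = 0.00628), the autophagy enzyme Atg10 (-1.11, adjusted p = 0.0092) and the giant hybrid Birc6 (-0.84, adjusted p = 0.0437). Uevld met the filter through its vehicle values (3.39, 2.7 and 2.68 against 0.13, 1.36 and 0.4 FPKM). With a value above 1 FPKM required in all 6 libraries, 7 of the 8 were tested, with 3 lower and 1 higher.

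HECT and RBR ligases, which take ubiquitin onto their own cysteine before passing it on, had 13 of 23 fall and 0 rise (median -0.80). The largest falls were in Nedd4 (-2.87, SE 0.39, limma adjusted p = 0.00165) and Itch (-2.14, SE 0.37, adjusted p = 0.00327). Of 16 genes of the ER-associated degradation complexes 5 fell and 1 rose (median -0.27), with Nploc4 at -2.14 (adjusted p = 0.00553) and Derl3 at 1.82 (adjusted p = 0.00276). Derl3 met the filter through its treated values alone (0, 0.6 and 0.09 against 1.81, 4.04 and 4.39 FPKM). With a value above 1 FPKM required in all 6 libraries, 15 of these genes were tested, with 5 lower and 0 higher. In the cullin-RING and NEDD8 cycle 9 of 19 fell and 1 rose (median -0.68), with Cul4a at -2.14 (adjusted p = 0.00201) and Elob at 0.83 (adjusted p = 0.0189). In the SUMO cycle 6 of 12 fell and 0 rose (median -0.62), with Rnf4 at -2.23 (adjusted p = 0.00376). With the filter in all 6 libraries, 12 of 18 HECT and RBR ligases tested were lower and 0 higher. The cullin-RING list then had 6 of 17 lower and 1 higher, and the SUMO cycle 3 of 8 lower and 0 higher.

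Among 14 genes of the ISG15 cycle and other interferon-stimulated genes, to which Ube2l6 belongs by function, 5 fell and 1 rose (median -0.56). Isg15 itself measured 18.64, 20.9 and 23.35 FPKM against 40.79, 26.63 and 26.78 FPKM, without overlap, and was not called (0.54, SE 0.24, limma adjusted p = 0.0926). Uba7, its E1, was not called (-0.25, SE 0.26, adjusted p = 0.429). Bst2 rose (0.74, adjusted p = 0.0222) and Rsad2 fell (-1.31, adjusted p = 0.00255). Rsad2 met the filter through its vehicle values alone (2.86, 2.64 and 1.81 against 0.3, 0.57 and 0.27 FPKM). With a value above 1 FPKM required in all 6 libraries, 11 genes of this list were tested, with 3 lower and 1 higher. With median-ratio scaling the calls in these lists also moved: the E1 list had 1 lower and 2 higher, the modifier genes 0 and 8, and the HECT and RBR ligases 6 and 1. The E2-like genes without the prefix had 1 lower and 3 higher, the ER-associated degradation genes 2 and 6, the cullin-RING list 2 and 4, the SUMO cycle 2 and 1, and the ISG15 list 2 and 3. The balance thus turned to higher for 6 of these 8 lists, while over all tested genes 13.7% were lower and 14.3% higher in that fit.

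**Figure D5:**
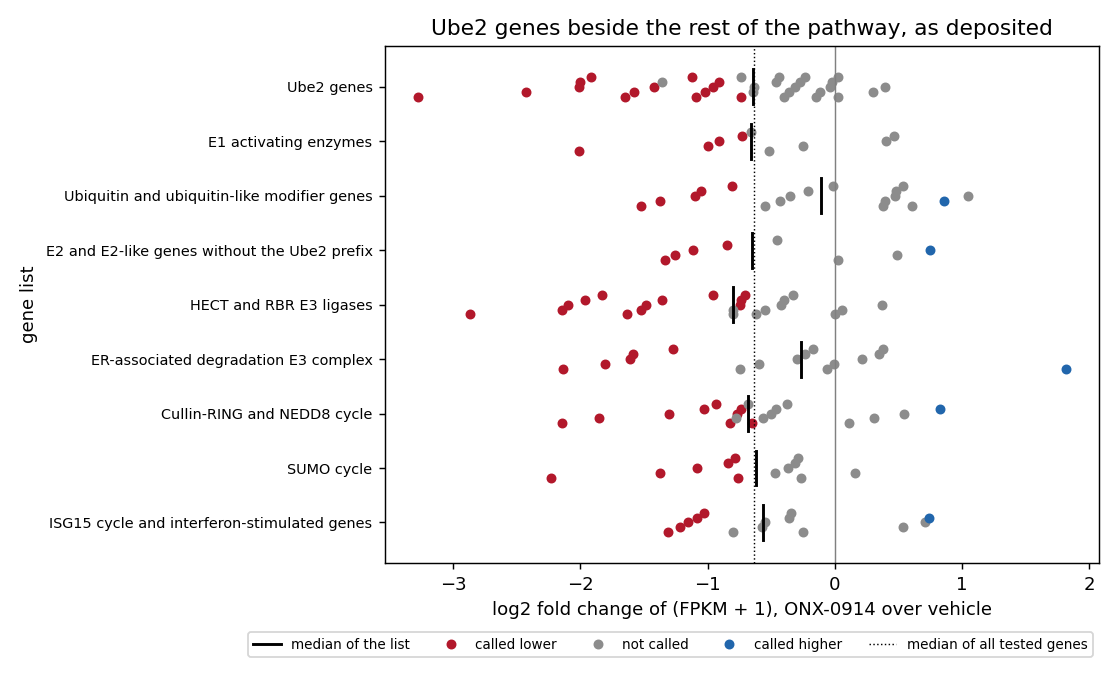
Log2 fold change of (FPKM + 1) as deposited for each tested gene of the Ube2 family and of 8 lists of related genes; red points were called lower, blue points higher and grey points not called, black bars mark list medians and the dotted line marks the median of all tested genes. List medians range from -0.80 for HECT and RBR ligases to -0.11 for the ubiquitin and modifier genes, with the Ube2 genes at -0.64.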

How the data were processed

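Messenger RNA enriched from mouse liver was sequenced in 6 libraries (3 vehicle, 3 ONX-0914). The deposited matrix gives 1 FPKM value per gene and library, to 2 decimals. No header names the unit: FPKM was read from the values and is taken as the authors' deposited unit. Per the submitters' processing notes, which give no roles or order, the tools named are HISAT2 2.0.1, edgeR, featureCounts 1.6.0, cutadapt 1.11 and FastQC 0.11.5, and the build GRCm38 (mm10). The annotation, strandedness, treatment of reads with several matches and any normalization are not given in the sources used here. FPKM carries no counts, so absolute depth is unknown. From the step size of low values, depth relative to vehicle 1 was 1.00, 1.28 and 1.13 for vehicle 1, 2 and 4 and 1.00, 0.868 and 0.911 for ONX-0914 1, 3 and 4.

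Members and lists were chosen with earlier results of these data known. Genes above 1 FPKM in at least 3 libraries were tested on log2(FPKM + 1) by limma 3.58.1 (R 4.3.3) with a variance trend, two-sided, with Benjamini-Hochberg adjustment over all 10743 genes and calls at an adjusted p under 0.05. A fold change is thus on the log2(FPKM + 1) scale, which understates changes of low genes. "Rose" and "fell" are used for calls. Median-ratio factors were taken over genes above 0 in every library. They were first taken over tested genes and then changed, and the Ube2 genes called were the same. The length trend was a lowess curve (span 0.3) of log2 values on the longest coding transcript in GENCODE M21, known for 98.2% of tested genes, and also gave gene positions, overlaps and shared 75-base windows. The script was tested on simulated data. Library values were given for the 6 members with the highest and the 6 with the lowest fold change, those called alike under both scalings and the most abundant of each role, and for Ube2g2 and Ube2e3, chosen after their values were seen. In other lists up to 4 called genes were named, those with the largest change. A tested member and a gene of 1 list are not reported here by name; counts, medians and sums include them.

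Alternatives were a pseudocount of 0.1, 2 other filters, 4 other scalings, a robust variance, a replicate block and each library left out. The comparison of ONX-0914 3 alone was added after seeing the data. It takes the spread from the vehicle libraries and assumes that the lone treated library varies as they do.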

Additional observations from a re-analysis of the deposited data

How the results depend on the processing

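All alternatives below concern the values as deposited: 14 Ube2 genes lower, 0 higher, median log2 fold change -0.64, and 4673 of all genes lower and 275 higher. Ube2 genes lower and higher, with their median, were 4, 5 and 0.15 with median-ratio scaling, 5, 3 and -0.053 with upper-quartile scaling, 6, 2 and -0.0914 with quantile normalization, 4, 1 and 0.12 after removal of the length trend, and 9, 1 and -0.33 for ONX-0914 3 alone. All genes lower and higher were 1471 and 1538, 1956 and 1074, 1334 and 1118, and 1219 and 1004 in the first 4 of these, and 2992 were lower for ONX-0914 3 alone. A filter above 1 FPKM in all 6 libraries left 2871 genes lower, since fewer genes were tested. Leaving out 1 library at a time gave 9 to 21 Ube2 genes lower, 0 higher, a median of -0.93 to -0.51, and 2590 to 6514 genes lower and 92 to 740 higher overall.

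Among the 14 members called as deposited, only Ube2o changed sign, to 0.0315 with quantile normalization and 0.19 after removal of the length trend, without a call in either. All other changes of sign were in members not called as deposited. With median-ratio scaling Ube2b became 0.35, Ube2c 0.48, Ube2cbp 0.52, Ube2d2a 0.50, Ube2e3 0.65, Ube2f 0.15, Ube2j1 0.32, Ube2k 0.41, Ube2l3 0.53, Ube2l6 0.70, Ube2m 0.76, Ube2n 0.17 and Ube2u 0.34. With upper-quartile scaling Ube2b became 0.15, Ube2c 0.29, Ube2cbp 0.38, Ube2d2a 0.29, Ube2e3 0.45, Ube2j1 0.13, Ube2k 0.20, Ube2l3 0.33, Ube2l6 0.49, Ube2m 0.56 and Ube2u 0.165. With quantile normalization Ube2c became 0.55, Ube2cbp 0.81, Ube2e3 0.37, Ube2j1 0.26, Ube2l3 0.0388, Ube2l6 0.0823, Ube2m 0.39, Ube2u 0.44 and Ube2v2 0.0733. After removal of the length trend Ube2c became 0.34, Ube2cbp 0.42, Ube2d2a 0.34, Ube2e3 0.44, Ube2f 0.28, Ube2j1 0.39, Ube2k 0.52, Ube2l3 0.47, Ube2l6 0.23, Ube2m 0.26, Ube2n 0.22 and Ube2v2 0.14. Ube2t was -0.0084 with a pseudocount of 0.1. For ONX-0914 3 alone Ube2t was -0.33, Ube2e3 0.18, Ube2j1 0.21, Ube2m 0.12 and Ube2v2 0.0191. Leaving out 1 library gave Ube2a -0.0622 to 0.12, Ube2cbp -0.22 to 0.14, Ube2m -0.12 to 0.0298 and Ube2t -0.26 to 0.20. Except where a setting tests fewer genes or libraries, the cause was not tested.

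Numbers 1 and 4 occur in both groups, but no label ties them. Deviations from the group means correlated 0.001 for number 1 and 0.13 for number 4, beside -0.17 to 0.10 for libraries with unlike numbers. So few libraries cannot settle whether equal numbers mark related samples. With a replicate block 20 Ube2 genes were lower and 0 higher, beside 5973 of the 10743 tested genes lower and 604 higher. Ube2a became -0.0645 and Ube2cbp 0.17. Numbers 2 and 3 each occur in only 1 group, so in this fit the ONX-0914 effect rests on libraries 1 and 4. Leaving out ONX-0914 3 without a block gave 21 lower and 0 higher, beside 6514 of all tested genes lower and 740 higher. Depth is unknown, so no counting error could be set beside the low values of Ube2t, Ube2o and Ube2cbp.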
